A study of Mus musculus with 15 samples.

Results

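Oxidative phosphorylation is carried out by 5 complexes of the inner mitochondrial membrane, and it is described here through 98 genes in JS1 mouse hepatic stellate cells. The members were chosen by symbol: nuclear genes of the Nduf, Sdh, Uqcr, Cox4 to Cox8 and Atp5 series, and the protein-coding genes of the mitochondrial genome. Of 38277 gene identifiers measured, 85 nuclear and 13 mitochondrially encoded genes met this rule, and 1 name marked as a pseudogene was left out. By complex, the nuclear members comprised 35 genes of complex I, 4 of complex II, 8 of complex III, 20 of complex IV (with Ndufa4 and its paralog Ndufa4l2 placed there) and 18 of complex V. The row named Atp5l2 is annotated as a pseudogene in GENCODE M21 and was kept because its name meets the rule.

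Complexes I and II pass electrons from NADH and succinate to ubiquinone, complex III passes them to cytochrome c, and complex IV passes them to oxygen. Complexes I, III and IV pump protons, and complex V, the ATP synthase, uses the resulting gradient to make ATP. Complex II is wholly nuclear-encoded, whereas the other complexes join nuclear subunits with core subunits made inside the organelle from long polycistronic transcripts of the mitochondrial genome, which are cut at the tRNAs that punctuate them.

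All cells were JS1, a stellate line from TLR4-/- mice that expresses wild-type TLR4 again, so every group shares this background. Libraries came from cells with an empty vector (n = 4) or with over-expressed XPO4 (n = 3) without treatment, and from cells with an empty vector (n = 4) or XPO4 (n = 4) that received TGFβ, the cytokine that activates stellate cells. The dose and time of TGFβ, and whether the cells were clones or pools, are not given in the labels. The design asks how the transcriptome of these cells differs when exportin-4 is over-expressed, in untreated and in treated cells.

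Levels are FPKM, fragments scaled to transcript length and to library size. Between genes they are on a per-length scale, but sequence shared with other genes and poly(A) selection can also bear on them. Read depth is unknown, FPKM sums were 480030 to 526338 per library and 11829 to 11971 genes reached 1 FPKM. Xpo4, a nuclear export receptor, was 2.06-fold higher with the construct at baseline (15.7 ± 1.69 FPKM, SD, n = 3, against 7.61 ± 1.44, n = 4, exact two-sided permutation p = 0.0571, the smallest that design allows) and 2.04-fold higher with TGFβ (14.6 ± 1.42 against 7.15 ± 1.86 FPKM, n = 4 each, exact p = 0.0286). Of 10 stellate cell markers 5 reached a mean of 1 FPKM, against 0 of 5 hepatocyte and 0 of 5 endothelial markers. Macrophage markers (2 of 5, summed level 4.50 to 9.79 FPKM) and cholangiocyte markers (3 of 5, 360 to 639 FPKM, with Spp1 leading) were also present. Acta2, the smooth muscle actin of activated stellate cells, was lower with XPO4 (log2 change -1.22 at baseline and -1.46 with TGFβ, limma adjusted p = 0.000719 and 4.57e-05) and higher with TGFβ (1.16 with the empty vector and 0.91 with XPO4). Spp1 was lower with TGFβ (-0.29 and -0.44, limma adjusted p = 0.0360 and 0.00303). The part of these markers in the results below was not tested. Nothing in the labels says that the libraries of a group are separate cultures, so p-values here reflect variation among libraries that may be only technical. In bulk samples, fewer cells of a type and less RNA per cell cannot be told apart.

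Among the mitochondrially encoded members, XPO4 libraries held more mt-Co1 relative to the other mitochondrial mRNAs of high level. mt-Co1 encodes the catalytic subunit of complex IV and mt-Cytb the cytochrome b of complex III. At baseline the ratio of mt-Co1 to mt-Cytb FPKM was 1.93, 2.16, 2.11 and 2.02 in the empty-vector libraries and 2.79, 2.71 and 2.71 in the XPO4 libraries. With TGFβ it was 1.73, 1.91, 2.05 and 2.05 with the empty vector and 2.78, 2.49, 2.81 and 2.60 with XPO4. The groups did not overlap in either treatment, and the ratio was higher in 7 of 7 XPO4 libraries than in any empty-vector library. The mean ratio was 2.06 ± 0.102 (SD, n = 4) against 2.74 ± 0.0484 (n = 3) at baseline, a 1.33-fold difference with an exact two-sided permutation p of 0.0571, the smallest that 3 against 4 libraries can give. With TGFβ it was 1.94 ± 0.152 against 2.67 ± 0.152 (n = 4 each), 1.38-fold, with an exact p of 0.0286, the smallest that 4 against 4 can give.

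The same direction held for the other ratios with mt-Co1. mt-Co1 over mt-Nd1, a core subunit of complex I, was 1.18 ± 0.0595 with the empty vector and 1.48 ± 0.0576 with XPO4 at baseline, and 1.21 ± 0.102 against 1.60 ± 0.136 with TGFβ. Over mt-Nd5, another complex I subunit, it was 9.43 ± 0.328 against 11.9 ± 0.537 at baseline and 9.47 ± 0.191 against 11.8 ± 1.09 with TGFβ. Of the 6 ratios with mt-Co1 over a high mitochondrial mRNA, 5 did not overlap between XPO4 and empty vector at baseline, and 5 did not overlap with TGFβ, all of them higher with XPO4. The exception was mt-Co1 over mt-Nd6, the light-strand gene of complex I, at 6.25 ± 0.819 against 7.52 ± 0.786 at baseline and 6.23 ± 1.003 against 7.65 ± 1.35 with TGFβ. Of the 15 ratios between the other 6 mRNAs, 1 did not overlap at baseline (mt-Nd2 over mt-Cytb, 1.09-fold higher with XPO4) and 0 with TGFβ. In single genes, 16.2% of those tested did not overlap at baseline and 10.2% with TGFβ.

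For TGFβ against no treatment, 0 of the 6 ratios with mt-Co1 separated the groups in empty-vector or in XPO4 cells. The 1 ratio of 21 that did in both was mt-Nd1 over mt-Cytb, which was lower with TGFβ by 0.11 on the log2 scale in empty-vector cells (exact permutation p = 0.0286) and by 0.15 in XPO4 cells (exact p = 0.0571). Groups did not overlap for 7.82% of genes tested in the first of these comparisons and for 9.85% in the second, and the 2 share no library. These ratios share their members and were looked at after the levels had been seen, so no adjusted p is given. A scaling of a whole library cancels in a ratio within it, but a ratio shows unequal change and not which of its members moved. Only 69.2% of the 100-base stretches of mt-Co1, and 48.9% of its 50-base stretches, occurred in no other annotated transcript. The part of its nuclear copies in these ratios was not tested. mt-Co1 itself measured 6344 ± 1028 FPKM with the empty vector and 6893 ± 556 with XPO4 at baseline (log2 change 0.13, adjusted p = 0.70 by limma with Benjamini-Hochberg correction), and 6333 ± 662 against 6780 ± 1347 with TGFβ (0.08, limma adjusted p = 0.878).

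**Figure D1:**
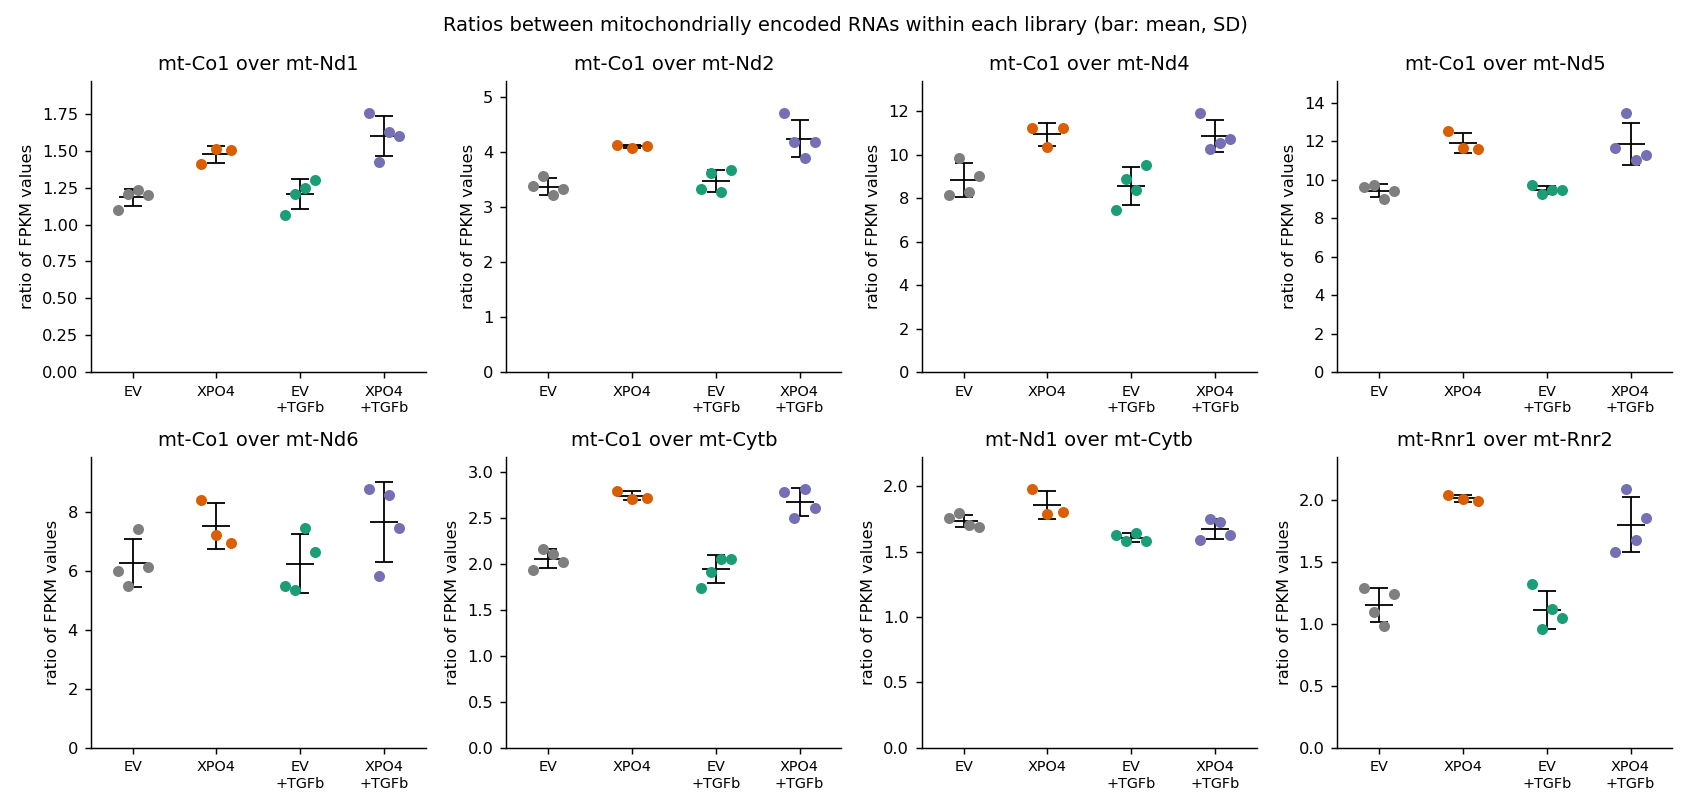
Ratios of FPKM values within each library (vertical axis, from 0) for mt-Co1 over 6 other mitochondrial mRNAs, mt-Nd1 over mt-Cytb and mt-Rnr1 over mt-Rnr2, by group (EV, empty vector); points are libraries, bars the mean and SD. The XPO4 points of mt-Co1 over mt-Cytb lie between 2.49 and 2.81, above the empty-vector points at 1.73 to 2.16.

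The mitochondrial ribosomal RNAs are no members but come from the same transcripts, and the small one, mt-Rnr1, rose with XPO4. Untreated empty-vector cells had mt-Rnr1 levels of 403, 269, 355 and 290 FPKM, and untreated XPO4 cells 580, 616 and 502 FPKM. After TGFβ the levels were 302, 228, 339 and 219 FPKM in control cells against 454, 384, 519 and 385 FPKM where XPO4 was over-expressed. In both treatments every XPO4 library was above every empty-vector library. Untreated, mt-Rnr1 rose by 0.79 on the log2 scale (limma adjusted p = 0.0165), and under TGFβ by 0.69 (limma adjusted p = 0.0393). The first call was lost without XPO4 library 0 or 1 or empty-vector library 3 (adjusted p up to 0.0782), and with the replicate number as a block (0.112). The second was lost when any 1 library other than empty-vector library 2 was left out (up to 0.122), and on quantile-normalized values (0.0974).

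The level of the large ribosomal RNA, mt-Rnr2, did not separate the groups, at 288 ± 60.4 against 280 ± 27.9 FPKM at baseline and 244 ± 40.8 against 247 ± 60.8 FPKM with TGFβ. The ratio of mt-Rnr1 to mt-Rnr2 was 1.29, 1.10, 0.983 and 1.24 with the empty vector and 2.05, 2.01 and 1.996 with XPO4 at baseline. With TGFβ it was 1.33, 0.958, 1.121 and 1.05 against 1.59, 2.09, 1.68 and 1.86. The groups did not overlap in either treatment, with folds of 1.76 (exact permutation p = 0.0571, n = 4 and 3) and 1.62 (exact p = 0.0286, n = 4 each). Every 100-base stretch of mt-Rnr1 and of mt-Rnr2 occurred in no other annotated transcript. Of the 7 ratios of mt-Rnr2 to a high mRNA, XPO4 separated mt-Rnr2 over mt-Nd5 upwards in both treatments, over mt-Nd2 and mt-Cytb upwards at baseline, and over mt-Co1 downwards at baseline. Of single genes tested, 8.23% separated upwards and 7.93% downwards with XPO4 at baseline, and 6.03% upwards with TGFβ. For TGFβ against no treatment, 8 of 15 ratios with a ribosomal RNA separated downwards in empty-vector cells and 7 of 15 in XPO4 cells. Of single genes, 3.57% and 4.46% did. These ratios share mt-Rnr1 or mt-Rnr2 as numerator, so the counts are not of independent results. The libraries were selected by poly(A), so ribosomal RNA levels describe the fraction retained by that selection.

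The levels of the 13 mitochondrially encoded members fell into 2 ranges that follow their order in the genome. From mt-Nd1 to mt-Co1 and again from mt-Nd4 to mt-Cytb, 7 genes had means over the 15 libraries of 629 to 6567 FPKM. mt-Co1 was highest, followed by mt-Nd1 at 4898, mt-Cytb at 2876, mt-Nd2 at 1756, mt-Nd6 at 965, mt-Nd4 at 686 and mt-Nd5 at 629 FPKM. The 6 genes between them, contiguous on the genome, had means of 3.51 to 13.4 FPKM. They encode complex IV subunits (mt-Co2 at 13.4 and mt-Co3 at 5.50 FPKM), complex V subunits (mt-Atp8 at 9.0 and mt-Atp6 at 6.97 FPKM) and complex I subunits (mt-Nd3 at 5.32 and mt-Nd4l at 3.51 FPKM). No library of any group had a member of this block above 53.0 FPKM or one of the other 7 below 413 FPKM.

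For 5 of these 6 low genes, nearly all of the transcript has an annotated copy elsewhere in the genome. The share of their 100-base stretches found in no other transcript of GENCODE M21 was 0.146% for mt-Co3, 0.513% for mt-Co2, 0.515% for mt-Atp6, 1.52% for mt-Nd4l and 2.41% for mt-Nd3. The copies are unprocessed pseudogenes in chr1:24611535-24616197 (mm10), in the order of the mitochondrial genome. The sequences below show, for 80 bases each, a member and its closest annotated copy, with bases that differ in capitals, because they decide whether a read can be placed uniquely. mt-Co3 lies at chrM:8958-9037 on the plus strand and Gm28437 at chr1:24613541-24613620 on the minus strand, with 0 differences. mt-Nd3 at chrM:9461-9540 differs once from Gm28438 at chr1:24613038-24613117 (minus strand), by T3C counted from the 5′ end of the mt-Nd3 transcript. mt-Nd2, a gene of the high range, differs from Gm13339 at 5 bases between chrM:4665-4744 and chr2:22590231-22590310 (minus strand). For each pair the 80 bases with the most differences were taken. Over all bases compared, mt-Nd2 differs at 17 of 510, mt-Nd3 at 1 of 345 and mt-Co3 at 0 of 783.
mt-Co3: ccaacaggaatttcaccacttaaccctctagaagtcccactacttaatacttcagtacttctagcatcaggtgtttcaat
Gm28437: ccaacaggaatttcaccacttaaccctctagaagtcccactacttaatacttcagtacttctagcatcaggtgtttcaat
mt-Nd3: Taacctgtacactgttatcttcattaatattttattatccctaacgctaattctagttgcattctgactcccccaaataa
Gm28438: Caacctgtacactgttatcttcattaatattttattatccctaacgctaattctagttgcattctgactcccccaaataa
mt-Nd2: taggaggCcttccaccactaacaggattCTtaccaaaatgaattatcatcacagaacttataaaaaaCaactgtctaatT
Gm13339: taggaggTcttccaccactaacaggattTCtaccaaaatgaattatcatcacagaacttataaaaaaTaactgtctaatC

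In the high range the unique share was 100% for mt-Nd1, mt-Nd5, mt-Nd6 and mt-Cytb and 96.8% for mt-Nd2. It was 69.2% for mt-Co1, which has copies on chromosomes 1 and 2, and 39.2% for mt-Nd4, whose first 876 bases match Gm28439 without a difference. Over 50-base stretches the share was lower, at 48.9% for mt-Co1, 37.8% for mt-Nd4, 91.8% for mt-Nd2 and 92.4% for mt-Nd5. For mt-Atp8 the count cannot decide, since it covers annotated transcripts only. All of its 100-base stretches were unique among these, but 233 bases of chromosome 1 lie unannotated between the copies of its neighbours. A copy of mt-Atp8 there would not have been counted. mt-Atp8 was listed at 0 in 12 of 15 libraries. In the other 3 it stood at 38.2 FPKM (empty vector, library 0) and at 43.9 and 53.0 FPKM (empty vector with TGFβ, libraries 0 and 2). The sources used here do not say how reads with several positions were counted, and the part of the copies in these levels was not tested. Medians and counts over the 13 mitochondrially encoded members below include these 6 genes.

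**Figure D2:**
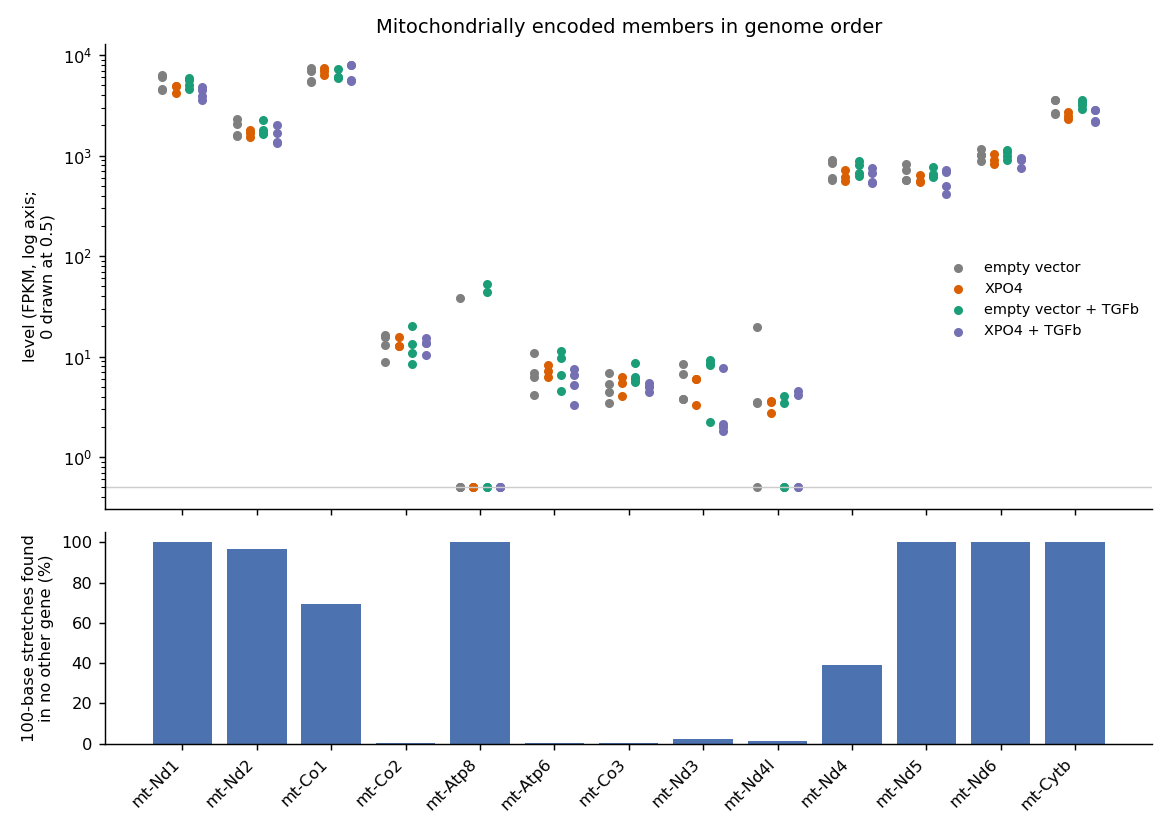
Upper panel: FPKM (log axis, listed zeros drawn at 0.5) of the 13 mitochondrially encoded members in genome order, 1 point per library, coloured by group. Lower panel: percent of each transcript's 100-base stretches found in no other annotated gene, which is under 3% for 5 of the 6 low genes and 100% for mt-Atp8. Unannotated copies were not counted.

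Nuclear members covered a wide range of levels, and subunits that stand side by side in 1 complex differed by orders of magnitude. Of the 85, 76 had a mean of at least 1 FPKM, 15 reached 100 FPKM and 24 were under 5 FPKM. In complex V, Atp5b, the catalytic beta subunit, was highest of all at 865 FPKM (712 to 1096 over the 15 libraries). Atp5d, the delta subunit, followed at 431 FPKM and Atp5g1, a gene of the c-ring subunit, at 234 FPKM. Atp5a1, the alpha subunit that alternates with beta in the enzyme, stood at 108 FPKM and Atp5c1, the gamma subunit, at 70.2 FPKM. Atp5e (epsilon) at 1.53 FPKM, Atp5l (subunit g) at 1.62 FPKM and the Atp5l2 row at 0.209 FPKM were the lowest in complex V.

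Complex II showed the same spread among its 4 genes. The membrane anchors Sdhd and Sdhc stood at 207 and 189 FPKM and the flavoprotein Sdha at 98.4 FPKM, whereas Sdhb, the iron-sulfur subunit, stood at 2.03 FPKM (1.03 to 3.93 over the 15 libraries). Every 100-base stretch of Sdhb was unique among annotated transcripts. That count sees exact matches only, and the part of near-identical or unannotated copies in this level was not tested. In complex III the Rieske protein Uqcrfs1 was highest at 170 FPKM, followed by Uqcr10 at 165 and Uqcrb at 108 FPKM. The core proteins Uqcrc1 and Uqcrc2 stood at 13.2 and 10.8 FPKM and Uqcr11 was lowest at 10.5 FPKM.

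Complex I levels had a median of 20.8 FPKM over its 35 nuclear genes, from 1.06 to 179 FPKM. Ndufc2 was highest at 179 FPKM, followed by Ndufs5 at 69.9 and Ndufa8 at 69.4 FPKM, which are accessory subunits. Among the core subunits, Ndufs1 stood at 10.5 FPKM, Ndufv2 at 11.6, Ndufs3 at 17.5, Ndufs7 at 17.7, Ndufs8 at 22.7 and Ndufv1 at 52.7 FPKM. Lowest were Ndufa5 at 1.70, Ndufc1 at 1.55 and Ndufb4 at 1.06 FPKM, all accessory subunits.

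Complex IV separated by isoform. Cox8a at 787 FPKM, Cox6a1 at 341 FPKM and Cox7a2l at 139 FPKM led, and Cox4i1, the widely expressed form of the largest nuclear subunit, stood at 121 FPKM and Cox5a at 17.8 FPKM. The muscle or testis forms Cox6b2, Cox7a1, Cox8b and Cox8c were listed at 0 in all 15 libraries. Cox4i2, the form known from lung and low oxygen, was listed at 0 in 13 libraries and Cox7b2 in 13. Cox6a2 averaged 0.490 FPKM and Cox6a1 made up a median of 99.9% of the pair. Ndufa4l2, known as a target of hypoxia-inducible factor, averaged 0.525 FPKM beside 28.0 FPKM for Ndufa4. Among the 3 genes for the identical mature c-ring subunit, Atp5g1 held a median of 50.9% of the summed FPKM, Atp5g3 42.6% and Atp5g2 7.98%.

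Among nuclear members, low levels were found with and without shared sequence. Of 54 nuclear genes with every 100-base stretch unique, 19 were under 5 FPKM and the median was 17.8 FPKM. Of 30 with some shared stretch, 4 were under 5 FPKM and the median was 37.6 FPKM. Of the 4 nuclear genes with under 75% unique stretches, 2 were under 5 FPKM, Atp5l (31.0% unique) and Ndufb4 (66.6% unique). Some pseudogene copies stood above their member, Gm12338 at 20.8 FPKM beside Cox7c at 6.66, Gm10221 at 4.61 beside Atp5l at 1.62 and Cox6c2 at 3.88 beside Cox6c at 2.54. Most other pseudogene copies stood below theirs. The count covers exact matches in annotated transcripts only, and the part of the copies in these levels was not tested.

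**Figure D3:**
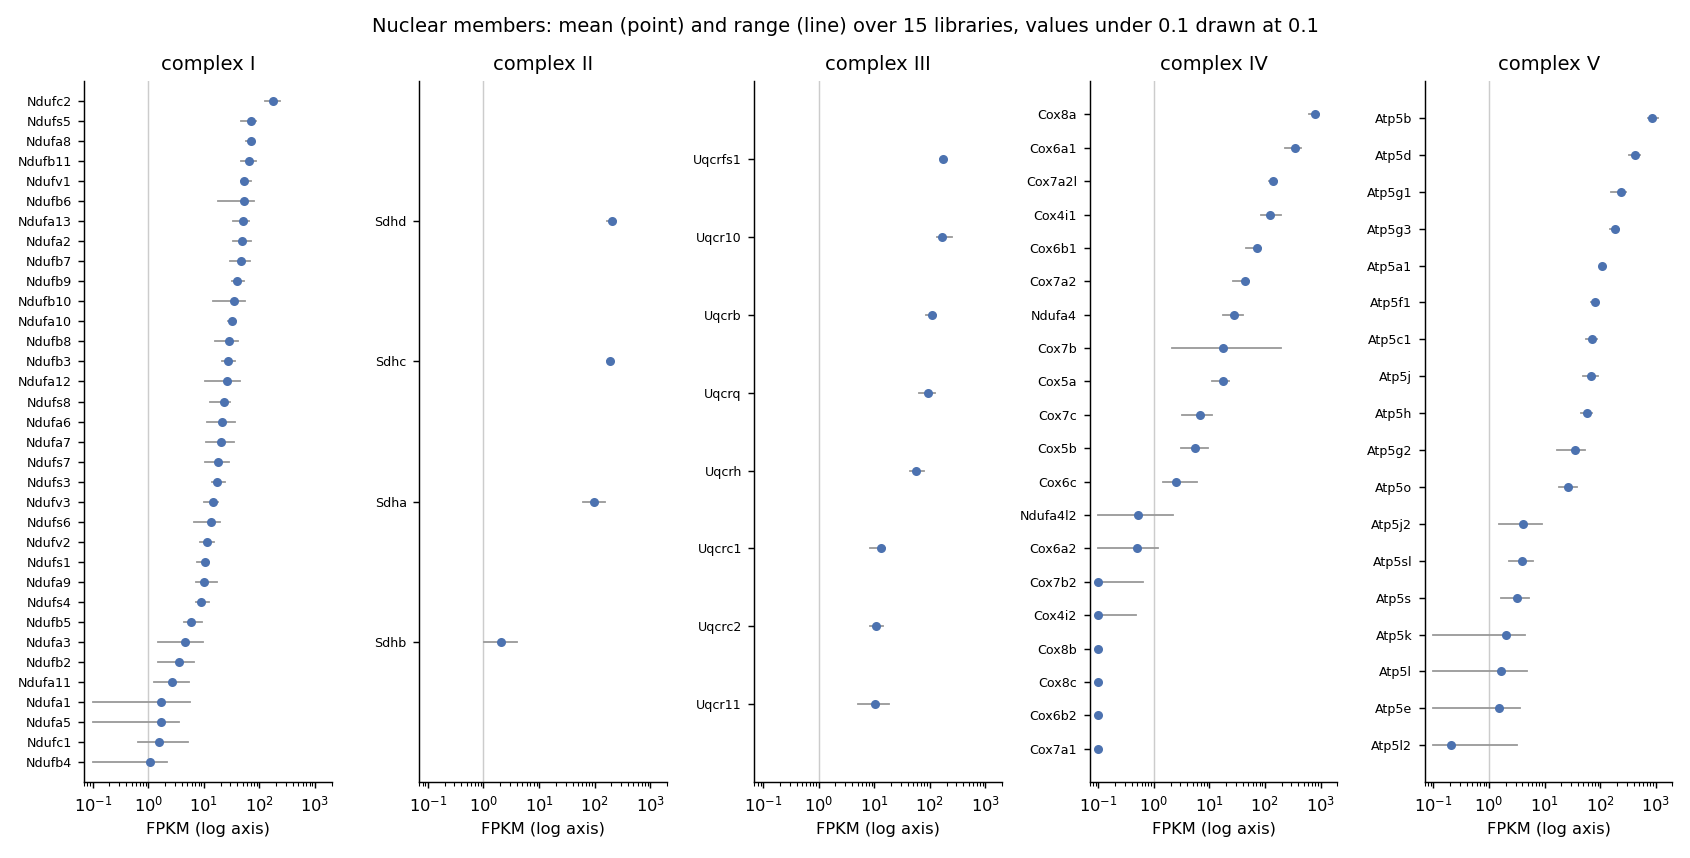
FPKM (log axis) of 84 of the 85 nuclear members by complex, with the mean over 15 libraries as a point and the range as a line; values under 0.1 are drawn at 0.1 and the grey line marks 1 FPKM. Sdhb at 2.03 FPKM lies far left of the other 3 complex II genes at 98.4 to 207 FPKM.

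Promoter letters, which the rule did not use, were counted for the nuclear members. In windows from 250 bases before to 50 bases after the start site (RefSeq, GRCm38.p6), 66 of the 85 nuclear members were matched by symbol. The NRF1 motif, GCGCA and GCGC with any 1 base between them, was found on either strand in 17 of the 66 (25.8%) and in 5.19% of all 27025 genes. AAGATGGC, the core read by YY1, was found in 9 (13.6%) against 3.19% of all genes, and CCGGAAGT, an ETS-type motif, in 5 (7.58%) against 4.31%. TATAAA was found in 10.6% of the members and 15.7% of all genes. In member windows 0 matches of different motifs overlapped. The median GC content was 57.3% in member windows and 52.7% in all. A match is a description of letters and not a bound site. Counting the start site as base 0, NRF1 matches lay between bases -191 and 39, and in 13 of 17 genes at least 1 lay wholly before the start. Sdha and Ndufb4 each held 3 matches, and the last 110 bases before the start are shown with the motif in capitals for Sdha, for Ndufb4 (2 of its 3 matches) and for Sdhd, which held 1. The positions are chr13:74350241-74350350 for Sdha, chr9:50603850-50603959 for Sdhd and chr16:37654369-37654478 for Ndufb4, all on the minus strand.
Sdha: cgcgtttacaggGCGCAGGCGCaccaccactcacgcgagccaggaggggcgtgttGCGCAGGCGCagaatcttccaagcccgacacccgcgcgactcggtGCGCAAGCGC
Sdhd: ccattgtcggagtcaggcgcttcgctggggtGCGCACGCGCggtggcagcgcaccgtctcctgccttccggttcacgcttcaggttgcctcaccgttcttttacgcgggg
Ndufb4: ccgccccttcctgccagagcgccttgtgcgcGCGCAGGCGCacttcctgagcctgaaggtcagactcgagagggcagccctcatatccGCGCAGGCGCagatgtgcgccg

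The YY1 motif lay mostly after the start site. In 8 of the 9 genes it lay on the gene's own strand between bases 22 and 45 after the start, and Atp5j was the exception. The windows end 50 bases after the start, so matches further on were not looked for and the upper edge of this range is set by the search. The motif includes the letters ATG, so a match after the start can also be a start codon, which was not tested. Short stretches around it are shown for 3 complex I genes, with the motif in capitals, at chr13:114388045-114388069 (minus strand) for Ndufs4, chr13:73328433-73328457 (minus strand) for Ndufs6 and chr10:80249467-80249491 (plus strand) for Ndufs7. Sdha at 98.4 FPKM and Ndufb4 at 1.06 FPKM each carried 3 NRF1 matches. Ndufs7, which carries the YY1 motif, is described with its values below.
Ndufs4: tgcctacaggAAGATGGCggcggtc
Ndufs6: tcaccggcAAGATGGCggcggtgct
Ndufs7: gaggccAAGATGGCggcgctggcgg

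At baseline, over-expressed XPO4 changed no member past the threshold. Of the 88 members tested (75 nuclear and 13 mitochondrial), 0 had a limma adjusted p under 0.05, against 3.71% of the 11926 genes tested, and 8 had an unadjusted p under 0.05, against 15.2% of genes (4 higher against 8.2%, 4 lower against 7%). The median log2 change was -0.05 for nuclear and -0.14 for mitochondrial members, beside -0.00444 for all genes tested. Uqcrh, the hinge protein of complex III, had the smallest p. It was at 55.4, 67.3, 72.6 and 66.7 FPKM with the empty vector and at 50.4, 45.2 and 57.4 FPKM with XPO4, a log2 change of -0.35 (SE 0.11, adjusted p = 0.161 by limma). The groups overlapped at 1 library. In complex V, Atp5j (coupling factor 6) was at 74.99, 63.8, 49.5 and 60.1 FPKM against 76.2, 90.1 and 80.3 FPKM (0.41, SE 0.13, limma adjusted p = 0.164), with no overlap. Besides Atp5j, only Atp5sl, a complex I assembly factor despite its name, had groups that did not overlap, at 3.09 ± 0.748 FPKM against 4.72 ± 0.437 FPKM (limma adjusted p = 0.203). These 2 of 88, both higher, compare with 16.2% of all genes tested (8.23% higher and 7.93% lower).

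In the other complexes the smallest p values at baseline were also short of the threshold by limma. Ndufa12, an accessory subunit of complex I, was at 27.9 ± 1.62 FPKM against 37.3 ± 7.98 FPKM (log2 change 0.39, limma adjusted p = 0.214), and without XPO4 library 2 it was called (adjusted p = 0.0353). Sdha was at 103 ± 9.76 against 85.4 ± 21.5 FPKM (-0.30, limma adjusted p = 0.451) and Cox5b of complex IV at 6.56 ± 1.17 against 4.38 ± 1.05 FPKM (-0.50, limma adjusted p = 0.209). mt-Cytb was at 3595, 2580, 3555 and 2656 FPKM against 2491, 2740 and 2327 FPKM (-0.28, limma adjusted p = 0.375). The empty-vector libraries 0 and 2 stood above the rest, and the other 2 lay among the XPO4 libraries.

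With TGFβ present, XPO4 again changed no member past the threshold in the fit that ignores replicate numbers. As at baseline, 6 of the 7 high mitochondrial mRNAs had changes below 0. By limma 0 of 88 members passed, against 3.74% of 11976 genes, and 10 had an unadjusted p under 0.05, against 14% of genes (2 higher against 7.66%, 8 lower against 6.34%). The median log2 change was -0.02 for nuclear and -0.26 for mitochondrial members, and that of all genes -0.00481. mt-Cytb had the smallest p of the members, at 3444, 3156, 3569 and 2927 FPKM in control libraries against 2860, 2231, 2823 and 2181 FPKM in XPO4 libraries (-0.38, SE 0.11, adjusted p = 0.116 by limma). All 4 XPO4 libraries lay below all 4 controls. mt-Nd1 was at 5618, 4989, 5862 and 4623 FPKM against 4539, 3904, 4875 and 3549 FPKM (-0.33, SE 0.12, limma adjusted p = 0.210), with overlap at 1 library. The other high mitochondrial mRNAs changed by -0.26 (mt-Nd4), -0.24 (mt-Nd5), -0.21 (mt-Nd6) and -0.20 (mt-Nd2) on the log2 scale, none past the threshold in this fit, and mt-Co1 by 0.08. A fit with the replicate number as a block called mt-Nd1, mt-Cytb and mt-Nd4 lower (limma adjusted p = 0.0192, 0.0201 and 0.0485). Same-numbered libraries did not deviate together in every pair, so the numbers were not taken as pairs.

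Of the low block, mt-Co3 was at 6.23, 8.65, 5.97 and 5.58 FPKM against 5.43, 5.04, 5.14 and 4.48 FPKM with TGFβ (-0.32, limma adjusted p = 0.352). It and mt-Cytb were the 2 members whose groups separated downwards, and Ndufs7 the 1 that separated upwards. These 3 of 88 compare with 10.2% of all genes tested (6.03% higher and 4.22% lower). Ndufs7, a core complex I subunit with an iron-sulfur cluster, was at 14.3, 12.7, 16.7 and 16.9 FPKM against 19.7, 21.4, 18.3 and 18.6 FPKM (0.35, SE 0.11, limma adjusted p = 0.151). Uqcrh was at 79.3, 53.8, 52.3 and 67.4 FPKM against 52.4, 44.9, 44.1 and 48.2 FPKM (-0.39, SE 0.13, limma adjusted p = 0.191), with overlap at 1 library. The baseline and TGFβ comparisons of XPO4 share no library, but neither change of Uqcrh passed the threshold. Atp5h, subunit d of complex V, was at 63.7 ± 10.1 against 48.7 ± 4.55 FPKM (-0.37, limma adjusted p = 0.173), Sdhc at 200 ± 11.2 against 178 ± 9.42 FPKM (-0.16, limma adjusted p = 0.347) and Cox7c of complex IV at 5.66 ± 2.34 against 8.08 ± 2.06 FPKM (0.48, limma adjusted p = 0.421).

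TGFβ in empty-vector cells left the members short of the threshold as well. By limma 0 of 89 members passed (1.77% of 11951 genes did), and 7 had an unadjusted p under 0.05, against 11.5% of genes (1 higher against 5.81%, 6 lower against 5.68%). The nuclear median was -0.10 and 48 of 76 nuclear members were lower, while the mitochondrial median was 0.02 and that of all genes -0.00904. Ndufa1, an accessory complex I subunit, was at 4.03, 2.59, 2.11 and 1.45 FPKM without TGFβ and at 0, 1.28, 0 and 1.40 FPKM with it (-1.16, limma adjusted p = 0.219), and the groups did not overlap. Atp5g3 was at 214, 199, 219 and 204 FPKM against 189, 181, 153 and 168 FPKM (-0.28, SE 0.10, limma adjusted p = 0.220), also without overlap. Groups separated for 5 of 89 members (1 higher and 4 lower), against 7.82% of all genes (4.25% higher and 3.57% lower). In the other complexes the smallest p belonged to Sdhd (-0.12, limma adjusted p = 0.620), Uqcrfs1 (-0.09, 0.628), Cox7a2l (0.09, 0.715) and mt-Co3 (0.35, 0.485). This comparison shares its control libraries with the baseline comparison of XPO4 and its treated libraries with the other.

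In XPO4 cells TGFβ lowered 1 member past the threshold, Ndufa7, an accessory subunit of complex I. It was at 35.004, 28.7 and 21.8 FPKM without TGFβ and at 19.9, 19.4, 13.9 and 10.95 FPKM with it (-0.81, SE 0.19, adjusted p = 0.0468 by limma). The groups did not overlap. The call was lost in 11 of 15 fits that left out 1 library. Those that kept it lacked XPO4 library 2, XPO4 library 0 or 1 with TGFβ, or empty-vector library 1 with TGFβ. It was also lost with no filter on low values and with no trend. In empty-vector cells Ndufa7 was at 23.2, 23.7, 22.1 and 19.7 FPKM and with TGFβ at 16.3, 21.5, 17.0 and 14.8 FPKM, with overlap. This 1 of 89 compares with 1.77% of all genes called in either direction and 0.577% called lower. An unadjusted p under 0.05 was found for 8 members against 10.1% of genes (1 higher against 5.2%, 7 lower against 4.86%). Uqcrfs1 was at 189, 180 and 177 FPKM against 157, 163, 153 and 154 FPKM (-0.21, SE 0.06, limma adjusted p = 0.109), a narrow spread in both groups with no overlap. Groups separated for 6 of 89 members (1 higher and 5 lower), against 9.85% of all genes (5.39% higher and 4.46% lower). The nuclear and mitochondrial medians were both -0.05, with -0.00592 for all genes. The smallest p in the other complexes belonged to Sdhd (-0.14, limma adjusted p = 0.610), Cox4i1 (-0.40, 0.527), Atp5h (-0.37, 0.309) and mt-Nd3 (-0.61, 0.742).

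**Figure D4:**
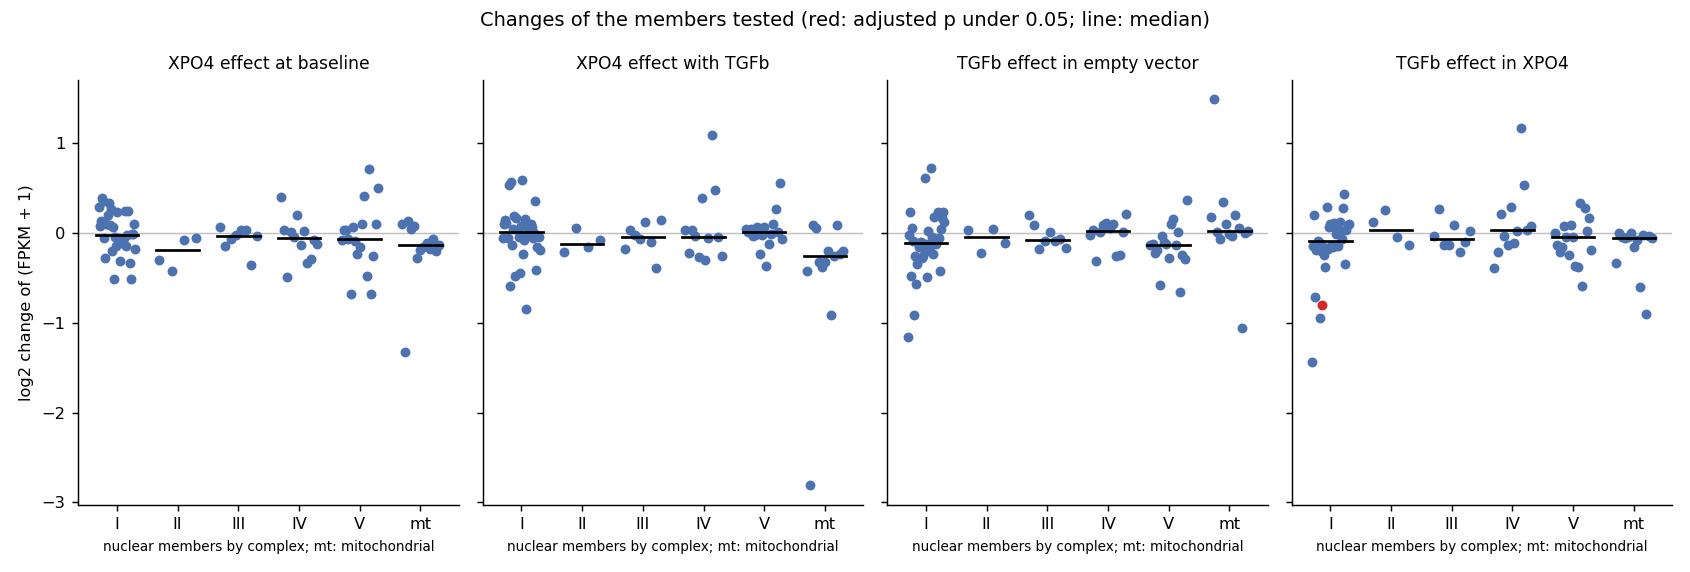
Difference of log2(FPKM + 1) for each member tested, by complex (I to V, nuclear; mt, mitochondrially encoded), in 4 comparisons; black lines are medians and red marks an adjusted p under 0.05. The 1 red point is Ndufa7 at -0.81 for TGFβ in XPO4 cells, and the mitochondrial median with TGFβ lies at -0.26 for XPO4.

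The test of whether the XPO4 effect differed between treatments called 0 of 89 members by limma, and 0% of all genes, with 3 members at an unadjusted p under 0.05 against 2.88% of genes (1 higher against 1.43%, 2 lower against 1.45%). Ndufs7 had the smallest p. It was at 19.8, 17.0, 18.8 and 27.9 FPKM in untreated control libraries against 14.7, 18.0 and 10.5 FPKM in untreated XPO4 libraries, so its baseline change was -0.51, opposite in sign to that with TGFβ. The difference of the changes was 0.86 (SE 0.24, limma adjusted p = 0.996). In the remaining groups of members the smallest p belonged to Sdhb (0.48), Uqcrfs1 (-0.13), Cox7c (0.77), Atp5j (-0.54) and mt-Co3 (-0.40), none past the threshold.

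**Figure D5:**
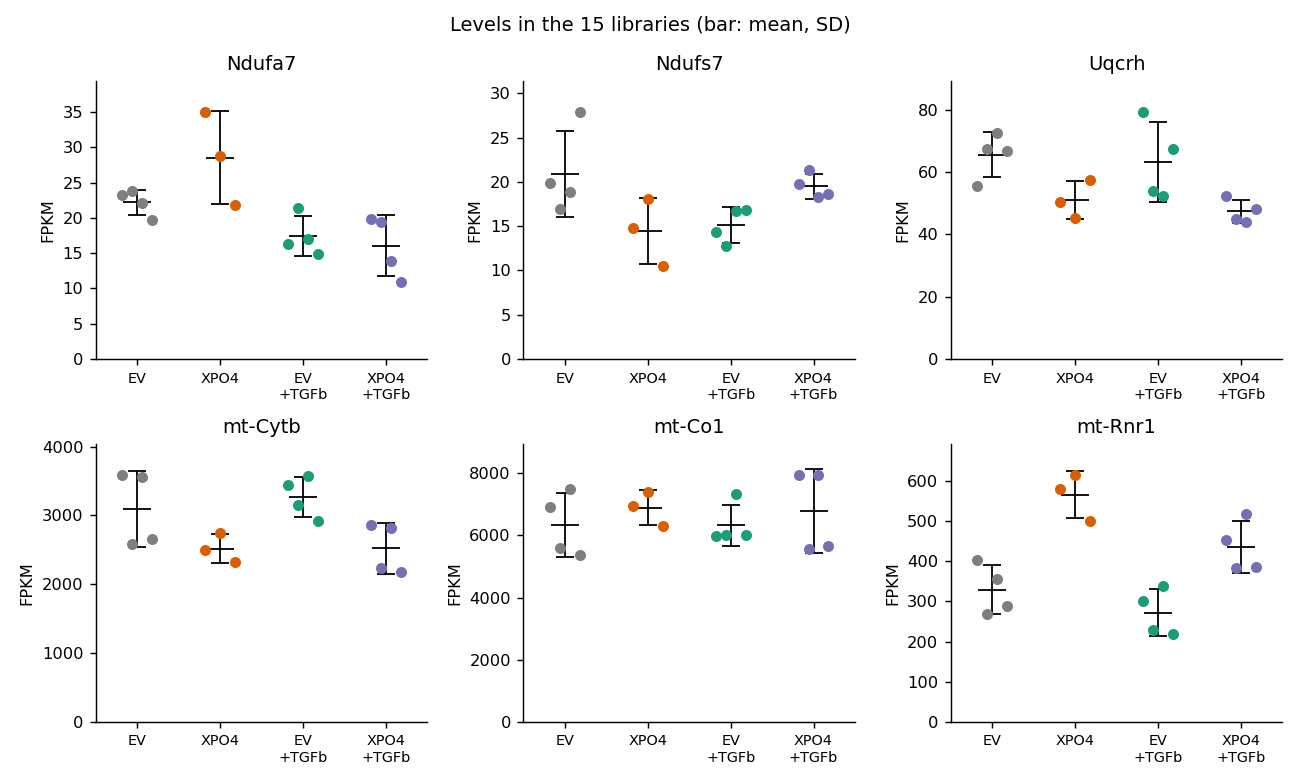
FPKM in the 15 libraries (vertical axes from 0) for 5 members and the ribosomal RNA mt-Rnr1, by group (EV, empty vector); points are libraries, bars the mean and SD. mt-Rnr1 lies at 384 to 616 FPKM in XPO4 libraries and at 219 to 403 FPKM with the empty vector, overlapping only across treatments.

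Nuclear and mitochondrial members did not move together from library to library. The 13 mitochondrially encoded members made up 2.84% to 4.58% of all FPKM and the 85 nuclear members 0.989% to 1.27%. The block from mt-Co2 to mt-Nd4l, with its shared sequence, held only 0.00435% to 0.0191% of all FPKM. The scores that follow use the 76 nuclear members with a mean of at least 1 FPKM. As the median over members of each member's deviation from its own mean (log2 scale), the mitochondrial level was 0.24, -0.22, 0.33 and -0.11 in empty-vector libraries 0 to 3 and -0.04, 0.04 and -0.08 in XPO4 libraries 0 to 2. With TGFβ it was 0.22, 0.07, 0.32 and -0.10 with the empty vector and -0.03, -0.32, 0.16 and -0.35 with XPO4. In the 3 groups of 4, libraries 0 and 2 stood above libraries 1 and 3. The nuclear deviations were smaller, from -0.26 in XPO4 library 2 with TGFβ to 0.12 in XPO4 library 1 with TGFβ. In the XPO4 libraries with TGFβ the 2 with the higher mitochondrial level were the 2 with the lower nuclear level. Mean nuclear minus mean mitochondrial log2(FPKM + 1) was -2.22 ± 0.40 (SD, n = 4) with the empty vector, -2.09 ± 0.03 (n = 3) with XPO4, -2.42 ± 0.39 (n = 4) with TGFβ and -1.97 ± 0.38 (n = 4) with XPO4 and TGFβ. XPO4 minus empty vector was 0.14 at baseline and 0.45 with TGFβ, and TGFβ minus untreated was -0.19 with the empty vector and 0.12 with XPO4, beside a pooled SD within groups of 0.35. With only the 7 high mitochondrial genes these differences were 0.11, 0.21, -0.12 and -0.01. With 1 library left out the baseline difference over all 13 genes was 0.02 to 0.26. No test was made of these scores.

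Few of the genes that build, feed or express the complexes were called. Of 52 assembly factors tested, 1 was higher and 0 lower with XPO4 at baseline, and 1 was higher and 0 lower with TGFβ, where 3.71% and 3.74% of all genes were called. The first was Cox20 (listed as Fam36a), a chaperone of the mt-Co2 protein, at 28.9 ± 2.95 against 40.5 ± 2.86 FPKM (log2 change 0.48, limma adjusted p = 0.0333), a call that held in 1 of 7 fits with 1 library left out. The second was Cox18, which inserts the mt-Co2 protein into the membrane, at 13.5, 12.8, 9.66 and 13.3 FPKM against 24.8, 24.2, 22.4 and 23.2 FPKM (0.90, SE 0.11, limma adjusted p = 0.00101), with no overlap. At baseline Cox18 was at 15.3, 24.9, 14.3 and 15.3 against 24.4, 21.4 and 25.2 FPKM, with overlap at 1 library.

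Of 30 genes for mitochondrial genome expression, 1 was higher and 0 lower in each XPO4 comparison, beside 3.71% and 3.74% of all genes called, and it was Pnpt1 in both. Pnpt1 encodes polynucleotide phosphorylase, an RNA-degrading enzyme of mitochondria. It was at 5.31, 3.36, 5.54 and 4.26 FPKM against 8.94, 9.76 and 7.43 FPKM at baseline (0.80, SE 0.17, limma adjusted p = 0.0384), and this call was lost in 6 of 7 fits with 1 library left out, all but the fit without empty-vector library 2 (adjusted p up to 0.151). With TGFβ it was at 5.69, 3.58, 4.44 and 4.35 against 9.79, 12.0, 12.5 and 7.42 FPKM (1.04, SE 0.18, limma adjusted p = 0.00763). The groups did not overlap in either treatment.

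Of 16 glycolysis genes 1 was higher with XPO4 at baseline, the hexokinase Hk1 at 21.6 ± 1.44 against 30.6 ± 1.38 FPKM (0.49, limma adjusted p = 0.0122), where 3.71% of all genes were called. The call was lost without XPO4 library 0 or 1 (adjusted p up to 0.0767). With TGFβ 0 of 16 passed by limma, 3 had an unadjusted p under 0.05 (14% of all genes did), and Hk1 was at 23.7 ± 2.86 against 31.1 ± 1.96 FPKM (0.38, limma adjusted p = 0.0840). For TGFβ against no treatment 0 of 16 were called. At an unadjusted p under 0.05, 0 were higher and 6 lower in empty-vector cells (5.81% and 5.68% of all genes). In XPO4 cells 0 were higher and 2 lower at that level (5.2% and 4.86% of all genes). Of 23 electron carriers and feeders 1 was lower with TGFβ in empty-vector cells (1.77% of all genes were called), the ADP/ATP carrier Slc25a5 at 815 ± 51.8 against 671 ± 50.8 FPKM (-0.28, limma adjusted p = 0.0332). In XPO4 cells Slc25a5 was at 800 ± 18.7 against 659 ± 13.9 FPKM (-0.28, limma adjusted p = 0.0515). The list medians lay between -0.17 and 0.09 on the log2 scale in every one of the 4 comparisons for assembly factors, genome expression, regulators, carriers, the citric acid cycle, glycolysis and mitochondrial ribosomal proteins.

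Among citric acid cycle and pyruvate genes, mitochondrial ribosomal proteins and nuclear regulators 0 genes passed by limma in any comparison. Of 20 citric acid cycle and pyruvate genes, 3 at baseline and 2 with TGFβ had an unadjusted p under 0.05 for XPO4, near the 15.2% and 14% of all genes. Pdha1, a subunit of pyruvate dehydrogenase, had the smallest p in both, at 111 ± 7.13 against 89.4 ± 5.93 FPKM at baseline (-0.31, limma adjusted p = 0.0725) and 103 ± 7.39 against 83.2 ± 5.52 FPKM with TGFβ (-0.30, limma adjusted p = 0.0944). Of 76 mitochondrial ribosomal protein genes, 8 of those tested had an unadjusted p under 0.05 at baseline (6 higher and 2 lower, where 8.2% and 7% of all genes were), led by Mrps21 (-0.35, limma adjusted p = 0.128). With TGFβ in XPO4 cells 0 were higher and 9 lower at that level (5.2% and 4.86% of all genes), led by Mrps10 (-0.43, limma adjusted p = 0.0963). In empty-vector cells TGFβ gave 0 higher and 8 lower (5.81% and 5.68% of all genes), led by Mrpl9 (-0.30, limma adjusted p = 0.0771). Among 8 regulators tested, Myc had the smallest p for XPO4 at baseline, at 214 ± 18.2 against 262 ± 15.5 FPKM (0.29, limma adjusted p = 0.116). Nrf1, whose motif is given above, was at 18.7 ± 2.64 FPKM in untreated empty-vector cells and 16.1 ± 0.383 FPKM after TGFβ (-0.19, limma adjusted p = 0.404).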

How the data were processed

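RNA was poly-T selected and made into strand-specific dUTP libraries, per the labels' protocols. FPKM values per gene were deposited in 2 tables, 7 untreated and 8 TGFβ libraries; the submitters' processing notes name CASAVA 1.8.2 and STAR 2.7.2b and the builds mm10 and GRCh38, with no role given. Read counts are not used here, so depth, intervals and floors are unknown. Groups came from the sample titles. Members and gene lists were chosen with earlier results of these data known.

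Each table was fitted for XPO4, and the 15 joined libraries for TGFβ and the interaction, with limma 3.58.1 (R 4.3.3, trend) on log2(FPKM + 1) for genes averaging 1 FPKM or more. A call is a Benjamini-Hochberg adjusted p under 0.05 over all genes tested. A change is a difference on that scale, which understates the change of low genes. The 2 tables were deposited separately, so levels compared across them rest on the authors' scaling. Ratios used FPKM without a pseudocount and exact permutation tests (scipy 1.17.1). Sequence uniqueness used GENCODE M21 transcripts and promoters used RefSeq (GRCm38.p6). Scripts ran in Python 3.11.15 and were tested on simulated data.

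Named were Xpo4, the mitochondrially encoded members, core subunits and isoforms by level, called members or the smallest p in each complex, the highest 3 and lowest 3 per complex, members with an outlying library, and the called or smallest-p gene of each list. The values of 1 core subunit are not reported here. Members whose groups separated, the mitochondrial ribosomal RNAs and the ratios were added after their values were seen. Alternatives were other pseudocounts, filters, scalings, blocks, no trend and each library left out.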

Additional observations from a re-analysis of the deposited data

Results flagged for a closer look

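In groups of 4 libraries, 20 of 267 member groups held a library whose gap to the nearest other exceeded Dixon's 95% limit, where chance flags about 1 in 20 groups, or 13.35 here. The untreated XPO4 group has 3 libraries and was not examined.

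Empty-vector library 2 stood low for 4 members, Ndufc2 (149 FPKM), Ndufa13 (33.9 FPKM), Uqcrb (100.5 FPKM) and Cox4i1 (85.7 FPKM), and library 0 was low for Cox7a2 (38.9 FPKM) and high for mt-Atp8 (38.2 FPKM, the others listed at 0). With the empty vector and TGFβ, library 0 was high for Ndufb7 (58.8 FPKM) and Ndufs8 (29.1 FPKM). Library 1 of that group was high for Ndufa5 (2.97 FPKM) and low for Ndufb4 (0.489 FPKM). Its library 2 was high for mt-Co1 (7325 FPKM), and library 3 was high for Atp5g1 (288 FPKM) and low for mt-Nd3 (2.24 FPKM).

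With XPO4 and TGFβ, library 3 held Cox7b at 193 FPKM, where the other 3 libraries held 3.17 to 5.28 FPKM, and Atp5h at 55.5 FPKM. Library 0 listed Ndufb4 at 0. Library 1 was high for Ndufa9 (15.7 FPKM) and low for Atp5g2 (24.1 FPKM). Library 2 was low for Atp5g1 (157 FPKM) and high for mt-Nd3 (7.67 FPKM).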

How the results depend on the processing

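No called value changed sign under the alternatives run, but medians near 0 did, such as the mitochondrial median for TGFβ in empty-vector cells (-0.05 to 0.11 with 1 library left out). For summary results, 378 values under other settings stayed the same and 3 moved, and 423 values with 1 library left out stayed the same and 12 moved. For single genes, 23 values weakened, 4 moved and 3 strengthened under other settings, and 42 weakened and 10 moved with 1 library left out. Nuclear members higher with XPO4 at baseline numbered 0 to 1 with 1 library left out, the 1 being Ndufa12 without XPO4 library 2. Nuclear members lower with TGFβ in XPO4 cells numbered 0 with no filter on low values, 0 with no trend, and 0 to 1 with 1 library left out, where the adjusted p of Ndufa7 was 0.0300 to 0.246 (limma). The cause was not tested.

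With the replicate number as a block, 3 mitochondrially encoded members were lower with XPO4 under TGFβ, mt-Nd1 (limma adjusted p = 0.0192), mt-Cytb (0.0201) and mt-Nd4 (0.0485), and mt-Rnr1 (0.112), Pnpt1 (0.222), Cox20 (0.115), Hk1 (0.0877) and Xpo4 (0.0891) at baseline were no longer called. Pnpt1 and Cox20 at baseline also lost their calls with no filter on low values and with scaling to genes outside the mitochondrial genome, and Slc25a5 with no filter (0.0878). Same-numbered libraries did not deviate together in every pair (correlations -0.149 to 0.245 under TGFβ), so the numbers were not taken as pairs, although the mitochondrial level was higher in libraries 0 and 2 than in 1 and 3 of each group of 4. Genes called over all tested ranged from 224 to 482 at baseline (443 in the fit reported) and from 391 to 676 with TGFβ (448) under other settings. With 1 library left out they ranged from 276 to 451 at baseline, 337 to 425 with TGFβ, 108 to 243 for TGFβ in empty-vector cells (212) and 118 to 214 in XPO4 cells (211). The log2 difference of mt-Co1 over mt-Cytb stayed at 0.38 to 0.44 at baseline. At baseline Pnpt1 stayed called only without empty-vector library 2, and reached an adjusted p of 0.151 without XPO4 library 1. Cox20 (listed as Fam36a) stayed called only without empty-vector library 0, and reached 0.132 without XPO4 library 0. Hk1 lost its call without XPO4 library 0 (0.0767) or 1. Slc25a5 lost its call without any 1 of 7 libraries, empty-vector libraries 0, 1 and 3, the same with TGFβ 1, 2 and 3, and XPO4 with TGFβ 0, reaching 0.120. Cox18, and Pnpt1 with TGFβ, kept their calls in all 8 such fits. Unknown read depth limits statements on members near 1 FPKM.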
